A study of Mus musculus with 18 samples.

Results

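RNA of whole choroid was compared with RNA of whole brain, as it stood in the tissue lysate before any pull-down. The comparison used the 3 Choroid Input and the 3 Brain Input libraries, 6 of the 18 libraries of the study, over the 7461 genes that the deposited tables list for both tissues and that were normalised together. For Choroid 7569 genes were listed and for Brain 13957, so 108 genes were listed for Choroid alone, 6496 for Brain alone, and 14411 in any of the 3 tissue tables. The mice carried Cdh5(PAC)-cre/ERT2 and NuTRAP and were induced with tamoxifen. All groups share this genotype and treatment, so the controls carry the same alleles. Cdh5(PAC)-cre/ERT2 is a recombinase that tamoxifen switches on and that endothelial cells make from the Cdh5 promoter, and NuTRAP is a reporter that tags ribosomes and nuclei of the recombined cells. Tissue was homogenised and spun, and a portion of the supernatant was kept as Input, while the rest went to an antibody against GFP that gave the Positive fraction. The Input is therefore RNA of all cell types in the cleared lysate. The labels name 3 biological replicates and no number of animals, so the p-values below measure only how far these libraries scatter, and that scatter may be technical.

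The choroid is the vascular layer between the retina and the sclera of the eye. Its capillaries, the choriocapillaris, are fenestrated and feed the outer retina across Bruch's membrane and the retinal pigment epithelium, which recycles the visual chromophore, takes up shed photoreceptor tips and carries nutrients and waste. Its stroma holds melanocytes, fibroblasts, macrophages, smooth muscle and nerve. Brain is dominated by neurons and glia, its capillaries form a barrier through tight junctions and selective transporters, and its fenestrated vessels and secretory epithelium are limited to small regions such as the choroid plexus.

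Total estimated counts over listed genes ran from 2018126 to 10031274 in Choroid Input and from 28128866 to 43219831 in Brain Input. The genes of both tables held 96.7% to 96.9% of the listed counts of Choroid and 79.4% to 80.2% of those of Brain. The authors listed a gene when its raw count reached 50 in all samples of at least 1 fraction of that tissue. With the shallower Choroid libraries this minimum stands at a higher relative level in Choroid than in Brain. A gene listed for Brain alone was thus below the minimum in choroid but not shown to be absent there. The number of listed members in a gene list is a description and no support for a direction. Members low in choroid are the ones this minimum leaves out. Counts of higher members among those in both tables, called measured below, therefore lean towards choroid. Replicates correlated at 0.894 to 0.952 in Choroid and 0.992 to 0.997 in Brain on log CPM across genes, against 0.381 to 0.451 between tissues.

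Of the 7461 genes, 2624 were higher in choroid, which is 35.2% of those tested, and 2557 were lower, which is 34.3%, so that 69.4% differed in either direction (edgeR quasi-likelihood test, adjusted p under 0.05). Of these, 1746 and 1232 differed by at least 2-fold, or 23.4% and 16.5% of the tested genes. In 2738 genes (36.7%) every Choroid library stood above every Brain library, and in 2810 (37.7%) every one stood below. The median log2 difference of all genes was -0.0074, so the normalisation centred the comparison. It was centred on the shared genes alone, in every alternative as well. These genes hold a smaller share of the Brain counts than of the Choroid counts, so small differences depend on this choice. With the majority of genes called, a call alone says little about a gene, and the sizes below carry the description. Counts of list members below are to be set against these shares, 35.2% higher and 34.3% lower. In bulk RNA, more cells of a type and more RNA per cell cannot be told apart.

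**Figure D1:**
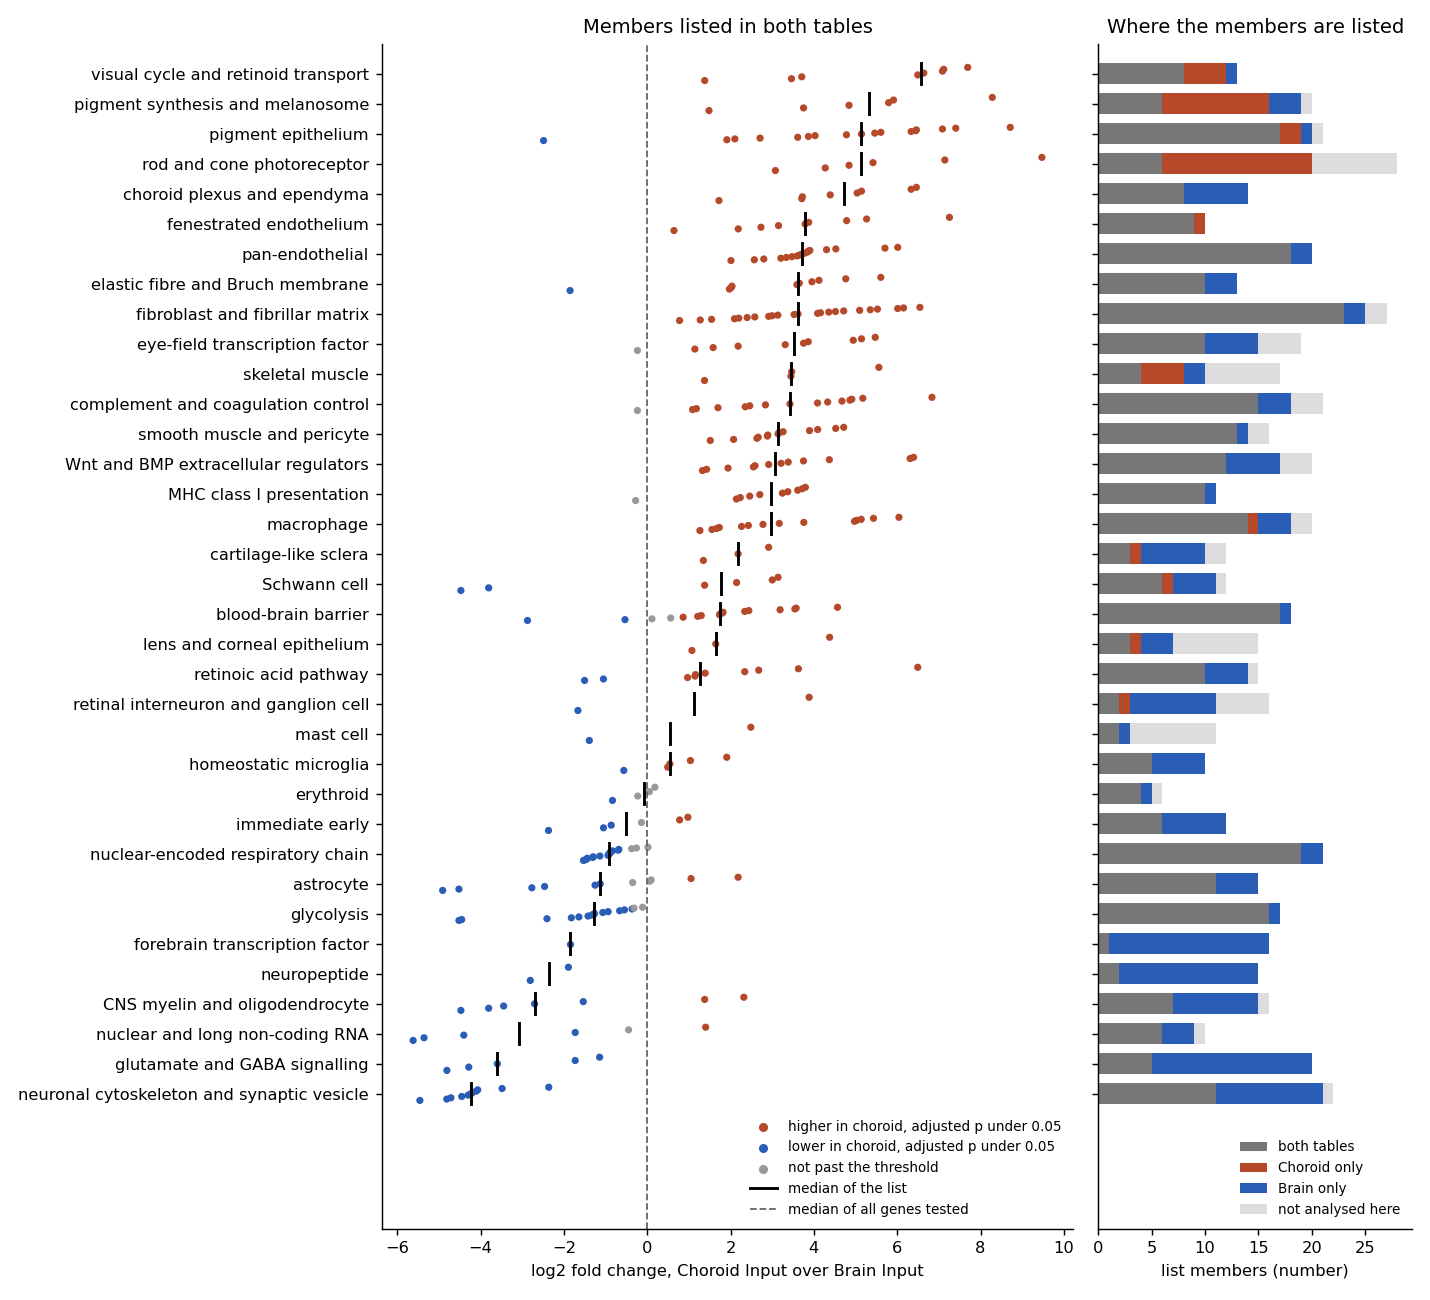
Log2 difference of choroid over brain Input for every member of 35 gene lists that both tables hold (left; points are genes, black bars list medians, the dashed line the median of all 7461 genes) and the number of members by table (right). Visual cycle, pigment and photoreceptor lists have the medians farthest to the right, and neuronal lists those farthest to the left, with 10 of 22 and 15 of 20 members listed for Brain alone.

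Genes of the pigment epithelium were among the widest differences towards choroid. Slc16a8, the lactate transporter of its basal side (Entrez 57274, chromosome 15, 79251016 to 79254748 on mm10), stood at 806, 1657 and 1255 normalised CPM, counts scaled to 1000000 per library, in the Choroid libraries and at 3.41, 2.69 and 2.78 in the Brain libraries. The groups lay far apart, with a log2 difference of 8.71 ± 0.34 (SE, 3 against 3 libraries, adjusted p = 2.11e-07), or 419.9-fold. Later values in brackets are log2 differences of choroid over brain, with their SE where one follows. Krt18, a keratin of simple epithelia, stood at 540.0, 931 and 629 CPM in choroid and at 4.43, 3.96 and 3.97 in brain (7.41 ± 0.26, adjusted p = 2.00e-07). Of the 21 pigment epithelium genes, 17 were in both tables and 16 of them were higher, against 35.2% of all genes, with a list median of 5.14. Timp3, an inhibitor of matrix proteases deposited in Bruch's membrane, was among the most counted genes of the tissue, at 7884, 8454 and 9289 CPM against 179, 166 and 182 (5.61 ± 0.15). The ion channel gene Kcnj13 (6.33), the sodium bicarbonate cotransporter gene Slc4a5 (6.46), the placental cadherin gene Cdh3 (6.45), the channel gene Trpm3 (4.78) and the transcription factor gene Otx2 (5.14) were higher too. Mertk, the receptor for engulfing photoreceptor tips, was higher by a smaller step (1.91), at 106, 78.2 and 140.3 against 22.7, 31.1 and 33.8 CPM. Pcp4l1 was the exception at -2.49 (adjusted p = 0.000112). Rpe65 and Krt8 were listed for Choroid alone, Best1 for Brain alone, and Cldn19 was not analysed here.

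The visual cycle turns all-trans retinol back into the 11-cis chromophore of the opsins. Its genes were higher in choroid in 8 of 8 measured cases, with a median of 6.57. Rdh5, which oxidises 11-cis retinol, stood at 1311, 3002 and 2144 CPM in choroid and at 11.4, 10.97 and 8.90 in brain (7.69 ± 0.36, 207-fold, adjusted p = 4.16e-07). Rlbp1, the carrier of 11-cis retinoids, stood at 2054, 4536 and 3643 against 23.5, 25.2 and 26.6 (7.09 ± 0.33). Choroid replicate 1 was the lowest of its group for both genes and still far above every Brain library. Rdh10, a second retinol dehydrogenase gene, stood at 1961, 2452 and 2366 against 16.7, 14.6 and 17.6 (7.12 ± 0.18), with less spread. The receptor for retinol uptake from blood, Stra6, followed, at 796, 1093 and 1126 against 11.3, 8.96 and 10.1 (6.64 ± 0.21). Ttr, which carries thyroid hormone and the retinol-binding protein, was high in both tissues, at 10950.0, 21350.0 and 12519 CPM in choroid and 1386, 961 and 1082 in brain (3.71 ± 0.29). Dhrs3 (3.46) and Rdh11 (1.38), reductases of wider distribution, differed least.

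Further visual cycle genes were listed for Choroid alone, so they have a level and no difference. Rpe65, the isomerase of the cycle, took 2042, 3479 and 3105 CPM of listed counts in the 3 Choroid libraries. Lrat, which makes the retinyl esters that the isomerase uses, took 2497, 2352 and 2978. Rgr, an opsin of the pigment epithelium, took 7665, 9991 and 9053, and its relative Rrh took 268, 500.0 and 328. Each of them kept the same order of magnitude in all 3 libraries. Rbp4, the retinol carrier of blood, was listed for Brain alone.

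**Figure D2:**
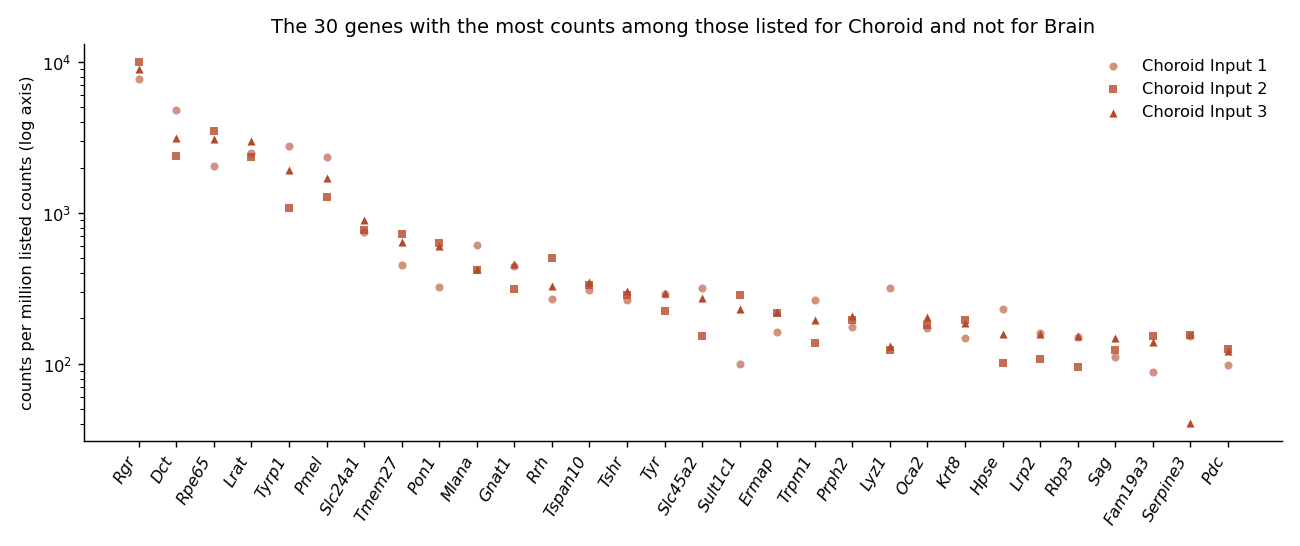
CPM of listed counts, on a log axis, of 30 genes listed for Choroid and not for Brain, in each of the 3 Choroid Input libraries; the 30 are those with the most counts, and counts grow with transcript length, so their order is not one of transcript number. Visual cycle genes (Rgr, Rpe65, Lrat, Rrh), pigment genes (Dct, Tyrp1, Pmel, Mlana, Tyr) and rod genes (Gnat1, Prph2, Sag) stand among them.

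Genes of pigment synthesis were abundant in choroid and largely unlisted for brain. Of 20 such genes, 10 were listed for Choroid alone, 6 in both tables, and Rab32, Slc24a4 and Mreg for Brain alone, with Mc1r not analysed here. All 6 shared genes were higher, with a median of 5.32. Gpnmb, a melanosome glycoprotein gene, stood at 1451, 689 and 939 CPM in choroid and at 3.33, 2.63 and 3.91 in brain (8.28 ± 0.36, adjusted p = 3.14e-07). The melanosome ion exchanger gene Slc24a5 (5.91 ± 0.30) and the genes of the melanosome transport complex, Mlph (5.79 ± 0.39) and Rab27a (4.84 ± 0.13), were higher as well. Mitf, the transcription factor that drives the pigment programme, stood at 226, 172 and 192 against 14.5, 14.2 and 15.1 (3.75 ± 0.14). Among genes listed for Choroid alone, the melanin enzymes Tyr, Tyrp1 and Dct took 289, 223 and 294, then 2794, 1073 and 1937, and 4806, 2384 and 3118 CPM of listed counts. For Tyrp1, Dct, Pmel, Mlph and Gpnmb replicate 1 was the highest Choroid library and replicate 2 the lowest, while for Rdh5 and Rlbp1 replicate 2 was the highest. Other members of both lists took other orders, such as Lrat and Tyr, which were lowest in replicate 2 and highest in replicate 3.

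MITF binds short E-box motifs, and the promoters of pigment genes are known for them. The windows from 250 bases before to 50 after the transcript start (RefSeq, GRCm38.p6) were searched on both strands for CATGTG and CACGTG; the second is its own reverse complement, and a gene with both counted once. Of the 16 pigment genes listed for Choroid, 11 had a window and 9 of these held a match, which is 81.8%. A match was found in 22.7% of 27025 genes with a window and in 20.5% of the 6005 tested genes with one. Among pigment epithelium genes it was 5 of 16 (31.2%), and among visual cycle genes 4 of 9. TAATCC, the core motif of OTX-type homeobox factors, was in 4 of the 11 pigment genes (36.4%), 2 of 16 pigment epithelium genes and 2 of 9 visual cycle genes, against 8.14% of all genes. A gene with several start sites has several windows and so more chances of a match. The 160 bases before the start are shown for 5 pigment genes that hold a match. They let the motif and its place be compared between the melanin enzymes, which were listed for Choroid alone, and 2 genes of both tables. Gpnmb and Mitf held no match in the 250 bases before any start, and Rab27a held it at start site 2 alone. Capitals mark the match, read 5′ to 3′ on the strand of the gene.
Tyr, chr7:87493513-87493672, minus strand: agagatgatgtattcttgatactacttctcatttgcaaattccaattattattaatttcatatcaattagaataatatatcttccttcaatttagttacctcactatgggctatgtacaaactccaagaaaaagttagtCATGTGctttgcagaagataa
Tyrp1, chr4:80834053-80834212, plus strand: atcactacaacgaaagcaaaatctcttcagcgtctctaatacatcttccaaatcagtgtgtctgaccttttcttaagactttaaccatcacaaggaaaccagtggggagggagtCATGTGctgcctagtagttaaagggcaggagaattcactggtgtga
Dct, chr14:118052247-118052406, minus strand: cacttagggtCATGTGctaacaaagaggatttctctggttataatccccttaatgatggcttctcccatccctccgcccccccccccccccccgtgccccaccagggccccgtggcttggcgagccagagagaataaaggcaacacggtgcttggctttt
Mlph, chr1:90914940-90915099, plus strand: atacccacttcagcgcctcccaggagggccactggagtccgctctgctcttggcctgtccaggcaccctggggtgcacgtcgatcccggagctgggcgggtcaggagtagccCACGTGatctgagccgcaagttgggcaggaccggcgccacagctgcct
Slc24a5, chr2:125067967-125068126, plus strand: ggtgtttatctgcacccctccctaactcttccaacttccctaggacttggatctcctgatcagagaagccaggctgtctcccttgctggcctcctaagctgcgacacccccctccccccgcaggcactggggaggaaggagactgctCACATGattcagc
The first base of the match shown lay at -21 in Tyr, -46 in Tyrp1, -150 in Dct, -48 in Mlph and -13 in Slc24a5, where -1 is the base before the start that the promoter table uses. Dct held a further match at -232, CACATG, outside the bases shown. The 3 enzyme genes share CATGTG followed by ct, Mlph has CACGTG, and Slc24a5 has CACATG, which is CATGTG on the other strand. A match is a string of letters and not a measured binding site.

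Transcripts of photoreceptors were present in the choroid libraries. Pde6a, a subunit gene of the rod phosphodiesterase, stood at 85.03, 63.6 and 95.96 CPM in Choroid and 0.665, 0.503 and 0.580 in Brain (7.14 ± 0.25, adjusted p = 2.00e-07), and Rom1, of the outer segment discs, at 289, 406 and 364 against 22.1, 15.5 and 17.2 (4.27 ± 0.20). The groups lay apart for both genes. All 6 photoreceptor genes of both tables were higher (median 5.13), 14 of the 28 on the list were listed for Choroid alone, and 8 were not analysed here. Photoreceptor genes took 0.285% to 0.347% of the listed counts of Choroid Input and 6.11% to 7.28% of those of Retina Input. These sums hold 20 listed members in Choroid and 28 in Retina. The Choroid level was set against the Retina level for the 20 photoreceptor genes that both of these tables hold, scaled over their shared genes. In 17 of the 20 the Choroid mean was between 2.26% (Pde6b) and 5.12% (Gngt1) of the Retina mean. The rod transducin gene Gnat1 stood at 457, 320.2 and 469 CPM in Choroid and 11596, 13199 and 13700.0 in Retina, or 3.24%. The remaining 3 were Rom1 at 11.3%, the retinoid flippase gene Abca4 at 21.4%, and Gngt2 at 23.3%. Rpe65, which is not a photoreceptor gene, went the other way, with 2105, 3569 and 3195 CPM in Choroid and 14.4, 5.42 and 6.77 in Retina. These levels move with the result for photoreceptor genes; whether retina carried along in dissection makes up the difference from brain was not tested.

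**Figure D3:**
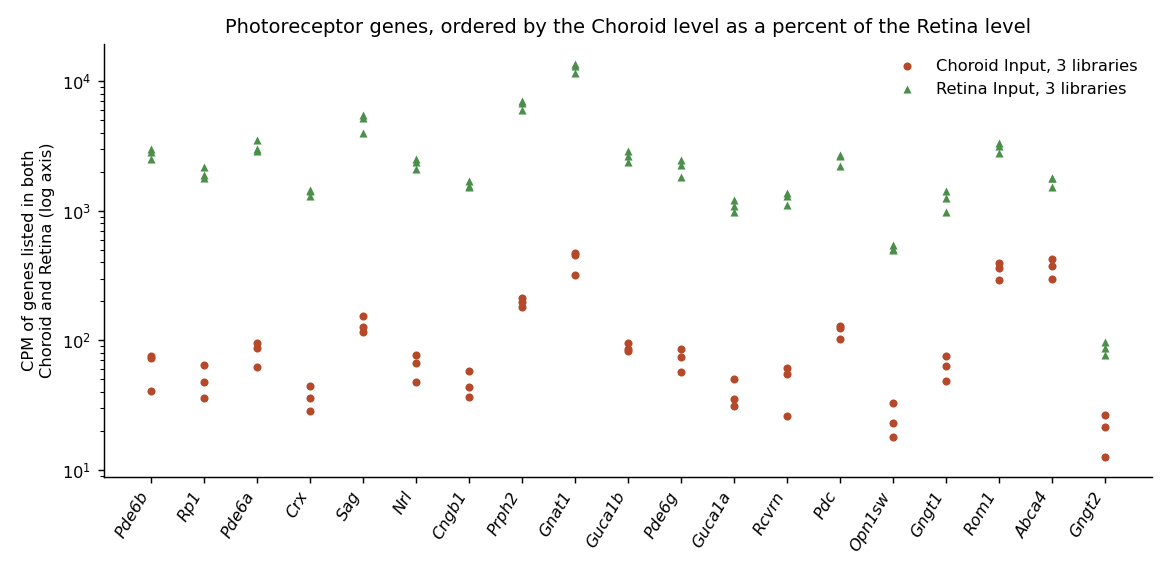
CPM, on a log axis, of 19 of the 20 photoreceptor genes in the 3 Choroid and the 3 Retina Input libraries, scaled over the genes that both tables list and ordered by the Choroid mean as a percent of the Retina mean. Genes from Pde6b to Gngt1 keep nearly the same distance between tissues, and Rom1, Abca4 and Gngt2 at the right stand closer together.

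A set of genes used to mark the choroid plexus was also higher in choroid, in 8 of 8 measured members (median 4.71). Slc4a5, Kcnj13, Otx2 and Ttr, which are on this list and on lists above, were joined by the chloride channel gene Clic6, at 1114, 969.9 and 1252 against 31.6, 34.2 and 35.7 CPM (5.04 ± 0.15). Folr1, a folate receptor gene, differed least (1.72 ± 0.34, adjusted p = 0.00186), with 18.7, 45.9 and 54.4 in choroid and 12.9, 10.7 and 12.9 in brain. The members that mark the plexus or the ependyma more narrowly, Kl, Prlr, Foxj1, Ccdc153, Tmem212 and Dynlrb2, were listed for Brain alone.

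Vessel genes were higher in choroid. Cdh5, whose promoter drives the recombinase, stood at 214, 112 and 228 CPM in choroid and at 12.7, 13.04 and 14.4 in brain (3.80 ± 0.26, 13.9-fold, adjusted p = 2.80e-06). All 18 measured pan-endothelial genes of 20 were higher, against 35.2% of all genes, with a median of 3.72. Sox17 and Tal1 were listed for Brain alone. The sialomucin gene Emcn (6.01 ± 0.23) and the VEGF receptor gene Kdr (5.71 ± 0.37) led them. Kdr stood at 605, 239 and 612 CPM in the Choroid libraries and 9.31, 8.66 and 10.03 in the Brain libraries, so that replicate 2 was under the other Choroid libraries by more than 2-fold. Replicate 2 was the lowest Choroid library in 17 of the 18 genes, down to 24.8, 4.17 and 20.4 for Sox7. Cldn5, the tight junction claudin of brain endothelium, showed the smallest step of the list, from 75.4, 48.8 and 51.4 to 251, 246 and 209.7 (2.01 ± 0.19).

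The 9 measured genes of fenestrated endothelium were higher too (median 3.79). Plvap, which forms the diaphragm of fenestrae (Entrez 84094, chromosome 8, 71497753 to 71511769), stood at 1373, 702 and 1321 CPM in choroid and 38.5, 25.9 and 24.2 in brain (5.26 ± 0.32, 38.4-fold, adjusted p = 1.50e-06). Esm1, a proteoglycan gene of tip cells and fenestrated vessels, had the largest difference of the list (7.25 ± 0.37), and it stood under 1 CPM in every Brain library. Igfbp3 (4.79 ± 0.19), the VEGF co-receptor gene Nrp1 (3.87 ± 0.21) and Vegfa itself, which the pigment epithelium secretes towards the choriocapillaris (2.18 ± 0.14), were higher. Gpihbp1, the anchor of lipoprotein lipase on capillaries, was listed for Choroid alone.

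Genes named for the blood-brain barrier gave no single direction. Of 17 measured members 13 were higher in choroid, against 35.2% of all genes. Tfrc and Spock2 were lower, and Mfsd2a (0.56 ± 0.33, adjusted p = 0.163) and Slc7a1 (0.11 ± 0.24, adjusted p = 0.697) did not pass. The median of 1.75 was under that of the pan-endothelial list. The largest differences were in the lactate transporter gene Slc16a1 and the glucose transporter gene Slc2a1. The pigment epithelium also carries these transporters, and which cells gave the choroid values was not tested. Slc16a1 stood at 774, 1479.8 and 1162 CPM in choroid against 54.8, 43.6 and 45.8 (4.57 ± 0.26). Slc2a1 stood at 1136, 1428 and 1367 against 114, 99.7 and 116 (3.57 ± 0.15, adjusted p = 2.42e-07). The organic anion and thyroid hormone carriers Slco1a4 (3.54), Slc22a8 (3.19) and Slco1c1 (2.34) and the efflux pump Abcb1a (2.44) were higher in whole choroid as well. Mfsd2a, the lipid transporter that restrains transcytosis, overlapped between groups, at 28.1, 75.6 and 32.5 CPM in choroid and 28.2, 28.4 and 31.9 in brain. Tfrc, the transferrin receptor gene, stood at 63.1, 80.8 and 66.7 against 91.8, 110.5 and 101 (-0.54 ± 0.14, adjusted p = 0.00752), a call that was lost with genes at or above the median level alone (-0.28, 0.104).

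Hemoglobin transcripts, a sign of retained blood, did not differ beyond their spread. Beta-s, an adult beta-globin gene under its older symbol, stood at 112, 254 and 241 CPM in choroid and 343, 95.6 and 148 in brain, with overlapping groups (0.05 ± 0.46, adjusted p = 0.932). Hba-a1 was at 0.18 ± 0.44 and Hba-a2 at -0.23 ± 0.59, and reads of these near-identical genes can be split by counting. Bpgm, an enzyme gene of red cells that other cells also use, was lower (-0.84 ± 0.14).

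**Figure D4:**
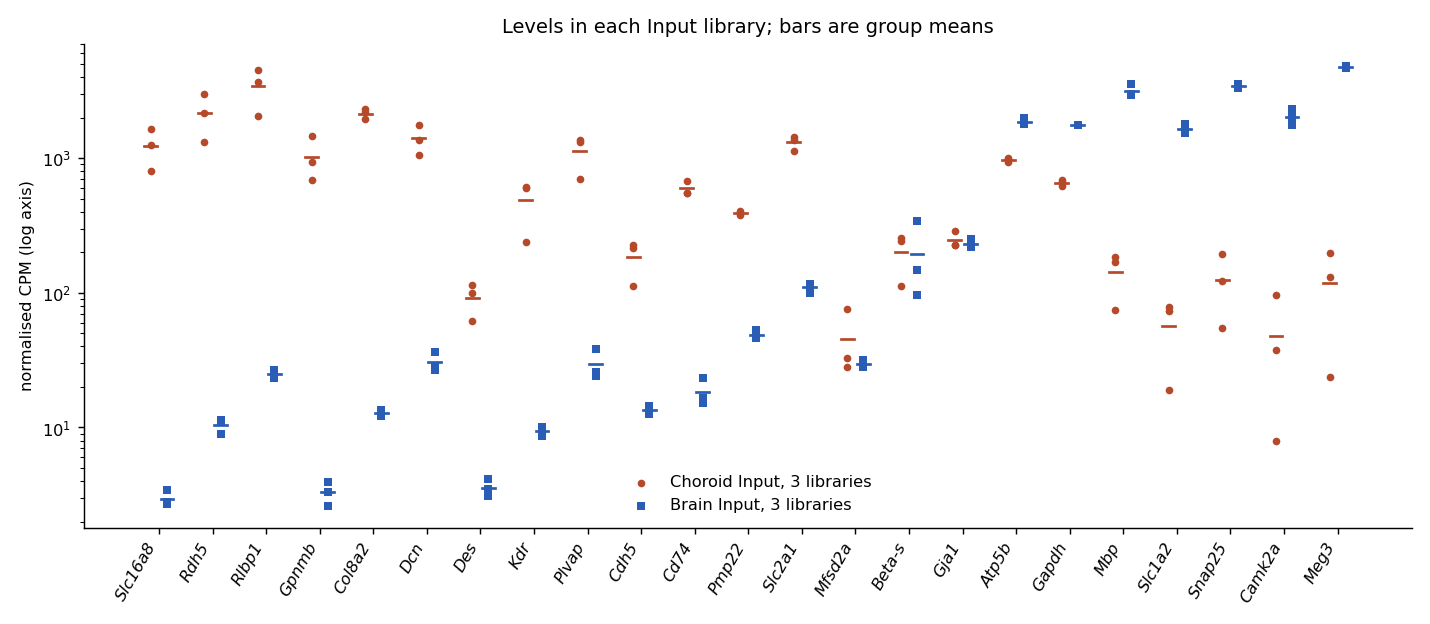
Normalised CPM, on a log axis, of 23 genes in each of the 3 Choroid (circles) and 3 Brain (squares) Input libraries, with bars at the group means. Pigment epithelium, matrix, vessel and immune genes on the left are higher in every Choroid library, Mfsd2a, Beta-s and Gja1 in the middle overlap, and metabolic, myelin, astrocyte and neuronal genes on the right are lower in every one.

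Matrix genes were higher in choroid, and which cells or layer gave their transcripts was not tested. All 23 measured fibroblast and fibrillar matrix genes of 27 were higher (median 3.62), against 35.2% of all genes. Dpt and Omd were listed for Brain alone, and Aspn and Kera were not analysed here. Dcn, the small proteoglycan that binds collagen fibrils, stood at 1775, 1371 and 1048 CPM in choroid and 36.5, 26.5 and 28.1 in brain (5.53 ± 0.25). The collagen I genes Col1a1 (4.52 ± 0.13) and Col1a2 (4.09 ± 0.12) and the collagen III gene Col3a1 (5.35 ± 0.22) were higher. Lum, a proteoglycan of transparent and scleral matrix, was at 6.01 ± 0.35. Col6a1 had the smallest difference (0.77 ± 0.25, adjusted p = 0.0210), with 145, 71.96 and 153 CPM in choroid and 80.1, 64.9 and 74.8 in brain, and its groups overlapped. Its call was lost without Choroid Input replicate 1 (adjusted p = 0.0785) or 3 (0.101) and without Brain Input replicate 2 (0.0727) or 3 (0.0523). The alpha chains of collagen VIII, a short-chain collagen of basement membranes, were among the 15 largest differences. Col8a1 stood at 1083, 1545 and 1733 against 7.54, 6.54 and 8.23 CPM (7.61 ± 0.25), and Col8a2 at 1935, 2299.5 and 2193 against 13.6, 12.8 and 12.2 (7.38 ± 0.16).

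Elastic fibre and Bruch's membrane genes were higher in 9 of 10 measured cases (median 3.62). The crosslinking enzyme gene Loxl1 (4.76 ± 0.19), the fibulin gene Fbln5 (4.12 ± 0.20), fibrillin 1 (Fbn1, 3.95 ± 0.18) and elastin were among them, with Eln at 163, 121 and 205 CPM against 12.9, 12.4 and 15.6 (3.59 ± 0.21). Htra1, a secreted serine protease gene known from macular degeneration, was lower in choroid, at 76.8, 72.5 and 56.7 against 264, 234 and 241 (-1.86 ± 0.14, adjusted p = 5.45e-06). Efemp1, another fibulin gene tied to drusen, was higher (2.01 ± 0.17). All 13 measured smooth muscle and pericyte genes were higher (median 3.14), such as desmin (Des, 4.72 ± 0.26) and the pericyte receptor gene Pdgfrb (3.14 ± 0.20), with Acta2 and Cnn1 not analysed here. Cartilage genes, some of which scleral cells also express, were represented by Comp (2.91 ± 0.44), Sox9 (2.18 ± 0.22) and Col11a1 (1.35 ± 0.23) in both tables and Chad for Choroid alone. Col2a1, Acan and 4 further members were listed for Brain alone.

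Other genes with differences among the 15 largest are secreted or membrane proteins. Thbs1, an inhibitor of vessel growth, stood at 414, 731 and 729.9 CPM against 5.72, 5.29 and 5.16 (6.86 ± 0.27), and Wfikkn2, which binds growth factors of the TGF-beta family, at 562, 515 and 421 against 3.77, 4.47 and 4.00 (6.93 ± 0.18). The claudin gene Cldn1 (6.88 ± 0.23), the secreted phospholipase gene Pla2g5 (6.90 ± 0.27), the carboxypeptidase-like gene Cpxm2 (7.06 ± 0.18) and the carrier gene Mfsd7c, now called Flvcr2 (7.10 ± 0.21), made up the rest. In none of them did the groups overlap, as the rule for naming required.

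Immune genes were higher in choroid where they mark macrophages. All 14 measured macrophage genes of 20 were higher (median 2.97). The class II antigen presentation genes stood together, with H2-Aa at 5.43 ± 0.22, H2-Eb1 at 5.14 ± 0.20, H2-Ab1 at 4.97 ± 0.18 and the invariant chain gene Cd74 at 5.03 ± 0.21. Cd74 stood at 554, 551 and 679.5 CPM in choroid and 23.3, 15.1 and 16.6 in brain. The lysozyme gene Lyz2 (6.04 ± 0.39) and the mannose receptor gene Mrc1 (3.76 ± 0.20) were higher, and the genes that brain microglia share, Csf1r (1.73), C1qa (1.66) and C1qb (1.26), differed less. Of 10 genes of homeostatic microglia, 5 were listed for Brain alone, P2ry12, Siglech, Sall1, Gpr34 and P2ry13. Among those in both tables, Cx3cr1 was lower, at 42.1, 27.6 and 31.4 CPM against 50.1, 51.7 and 48.6 (-0.56 ± 0.17, adjusted p = 0.0171), and Olfml3, Sparc and Tmem119 were higher. The call for Tmem119 (0.54 ± 0.17, adjusted p = 0.0201) was lost without Choroid Input replicate 3 (0.0663) and without Brain Input replicate 2 (0.104) or 3 (0.0798). The call for Cx3cr1 was lost with upper quartile scaling (0.0596), without Choroid Input replicate 3 (0.0589) and without Brain Input replicate 1 (0.0517), 2 (0.0679) or 3 (0.0508). Markers of mast cells were mainly not analysed here; Gata2 was higher (2.49) and Kit lower (-1.39).

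Complement genes were higher in 14 of 15 measured cases (median 3.42), against 35.2% of all genes, with C3, Cfd and Cd46 not analysed here. C1s, a protease gene of the classical pathway, stood at 242, 81.3 and 182 CPM in choroid and 1.11, 1.597 and 1.68 in brain (6.83 ± 0.43, adjusted p = 1.76e-06), with Choroid replicate 2 the lowest of its group. Its partner protease gene C1ra (4.91 ± 0.25), the component gene C2 (4.86 ± 0.27) and the C1 inhibitor gene Serping1 (4.09 ± 0.24) were higher as well. Clu was high in both tissues, at 4092, 6176 and 5209.8 CPM against 1055, 999 and 979.5 (2.35 ± 0.17). Vtn, a terminal complement inhibitor, did not pass (-0.24 ± 0.25, adjusted p = 0.424), but was lower without Choroid Input replicate 2 (0.0120). Of 10 measured genes of MHC class I presentation 9 were higher (median 2.97), against the same 35.2%. B2m stood at 1397, 1007 and 1225 CPM against 99.2, 78.4 and 98.3 (3.72 ± 0.18), and the immunoproteasome gene Psmb9 at 3.79 ± 0.26. H2-K1 (3.37) and H2-D1 (2.70) are near-identical copies, so that their single values are uncertain.

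Genes of skeletal muscle, lens, cornea, retinal interneurons and ganglion cells were measured as well. Of 17 skeletal muscle genes, 4 were in both tables and higher, Ckm, Myl1, Tnnt3 and Tnni2 were listed for Choroid alone, and 7 were not analysed here. They varied between Choroid libraries, with Atp2a1, the calcium pump of fast muscle, at 37.7, 152 and 275 CPM against 3.19, 3.99 and 2.78 in brain (5.56 ± 0.66), and Tnnt3 at 39.4, 93.8 and 184 CPM of listed counts. Replicate 1 was the lowest for both. Eno3 overlapped between groups (1.37 ± 0.39) and its call was lost without Choroid Input replicate 3 (adjusted p = 0.0840). Of lens and corneal genes, Aldh3a1 (4.38 ± 0.28), Cryab (1.64 ± 0.20) and Bfsp2 (1.07 ± 0.24) were higher, Krt5 was listed for Choroid alone, and 8 of 15 were not analysed here. Retinal interneuron and ganglion cell genes were largely listed for Brain alone, and of the 2 in both tables Rbpms was higher (3.89) and Prkca lower (-1.67). The summed share of the muscle list was 0.0227% to 0.0950% of listed counts in Choroid Input and 0.00326% to 0.00358% in Brain Input. These sums hold 8 listed members in Choroid and 6 in Brain.

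Of 6 measured Schwann cell genes 4 were higher and 2 lower, Mbp, which central myelin shares, among the lower. The list took 0.0969% ± 0.0119 (SD, n = 3) of listed counts in Choroid Input, from 7 listed members, and 0.412% ± 0.0282 in Brain Input, from 10. Pmp22, a myelin protein gene of Schwann cells that fibroblasts also express, stood at 389, 377 and 402 CPM in choroid and 46.02, 46.7 and 53.3 in brain (3.00 ± 0.12). The Schwann cell genes Scn7a (3.14 ± 0.26) and Cdh19 (2.14 ± 0.20) were higher. Sox10, shared by Schwann cells, melanocytes and oligodendrocytes, was higher (1.38 ± 0.16). The central myelin genes Mbp (-4.48 ± 0.34), Cnp (-3.45 ± 0.26), Cldn11 (-2.71 ± 0.36) and Mal (-1.54 ± 0.30) were lower, and Mog, Mag, Mobp, Opalin, Ugt8a, Olig1, Olig2 and Aspa were listed for Brain alone. Mbp stood at 185, 169 and 75.1 CPM in choroid and 3546, 2939 and 2985 in brain. Ermn, an oligodendrocyte cytoskeleton gene, went against its list, at 447, 606 and 595 CPM in choroid and 101, 112 and 117 in brain (2.32 ± 0.15, adjusted p = 1.94e-06).

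Neuronal genes were lower in choroid throughout, in 11 of 11 measured members (median -4.24, against 34.3% of all genes lower). Snap25, of the vesicle fusion machinery, stood at 193, 123 and 55.2 CPM in choroid and 3551, 3469.9 and 3335 in brain (-4.82 ± 0.42, adjusted p = 1.12e-05). Camk2a, the kinase of excitatory synapses, stood at 97.01, 37.5 and 7.93 against 1770.3, 2301 and 2020.4 (-5.46 ± 0.76). The Choroid libraries spread widely here, replicate 1 being highest and replicate 3 lowest, and no Choroid library reached a Brain library. The list took 0.0678% to 0.126% of listed counts in Choroid Input, 1.78% to 1.82% in Brain Input and 1.11% to 1.15% in Retina Input. These sums hold unlike members, 11 listed for Choroid, 21 for Brain and 21 for Retina, so part of the gap follows the listing. Nrgn, Syn1, Tubb3, the neurofilament genes and 4 others were listed for Brain alone. Of 20 glutamate and GABA signalling genes, 15 were listed for Brain alone and the other 5 were lower, with the vesicular glutamate transporter gene Slc17a7 at -4.29 ± 0.24. The chloride extruder gene Slc12a5 (-4.97 ± 0.23), the complexin gene Cplx1 (-5.66 ± 0.54), the pentraxin receptor gene Nptxr (-5.68 ± 0.59), Ndrg4 (-5.53 ± 0.54) and Camk2b (-5.42 ± 0.38) were among the 15 largest differences towards brain. Tubb4a (-5.34), Agap2 (-5.32), Sept3 (-5.31), Fbxl16 (-5.03), Atp6v1g2 (-5.00) and Cend1 (-4.93) completed them, beside Slc1a2 and the non-coding RNAs below. The neuropeptide genes Cck (-1.89) and Penk (-2.81) were lower, and 13 others were listed for Brain alone.

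Astrocyte genes split. Of 11 measured members 6 were lower, led by the glutamate transporter gene Slc1a2, at 72.8, 78.7 and 18.8 CPM in choroid and 1576, 1805 and 1535 in brain (-4.91 ± 0.49), and by Aldoc (-4.52 ± 0.14). Sox9 (2.18 ± 0.22) and the calcium-binding protein gene S100b (1.05 ± 0.19) were higher. Glul, the glutamine synthetase gene, stood at 1827, 2534 and 2167 CPM against 2179, 1994 and 2103 and did not pass (0.06 ± 0.15, adjusted p = 0.746). The connexin genes Gja1 (0.09 ± 0.13) and Gjb6 (-0.35 ± 0.20) did not pass either, although Gjb6 was lower without Choroid Input replicate 1 (adjusted p = 0.00175) and with voom (0.0375), and Gja1 was higher with genes at or above the median level alone (0.35, 0.0454), while Aqp4, Gfap and Slc1a3 were listed for Brain alone. Müller glia of the retina and the pigment epithelium also use some of these genes, and which cells gave the choroid values was not tested.

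Measured transcription factor genes of the eye field and periocular tissue were largely higher in choroid. Those of the forebrain were largely not listed for it, which gives no direction. Of 10 measured eye-field and periocular factors 9 were higher in choroid (median 3.53). Tbx2, of the optic cup, stood at 97.6, 86.04 and 86.4 CPM against 3.02, 3.40 and 2.35 (4.94 ± 0.19). Six3, which patterns the eye field, stood at 388, 395 and 414 against 33.2, 28.2 and 21.04 (3.86 ± 0.18). Foxc1 (3.31 ± 0.18), Nr2f2 (1.58 ± 0.12) and Lhx2 (1.14 ± 0.15) were higher, and Nr2f1 did not pass (-0.24 ± 0.23, adjusted p = 0.379). Of the 19 factors on this list, 5 were listed for Brain alone and 4 were not analysed here. Pax6 was listed for Brain alone. Of 16 forebrain factors, 15, such as Tbr1 and Neurod2, were listed for Brain alone, and Mef2c was lower (-1.86 ± 0.14).

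Secreted regulators of the WNT and BMP pathways were higher in 12 of 12 measured cases (median 3.06), against 35.2% of all genes. A further 5 of the 20 were listed for Brain alone, so this count leans towards choroid. Bmp4, a ligand gene, stood at 362, 588 and 464 CPM in choroid and 3.55, 6.09 and 6.96 in brain (6.39 ± 0.31, 84.03-fold). The WNT antagonist genes Dkk2 (6.31 ± 0.22) and Sfrp1 (4.37 ± 0.23) and the BMP antagonist genes Nog (3.38 ± 0.17) and Smoc1 (3.75 ± 0.24) were higher alongside. Wnt7a and Wnt7b, the ligands that brain endothelium depends on, were listed for Brain alone. In the retinoic acid pathway 8 of 10 measured genes were higher, among them the synthesising enzyme gene Aldh1a2 (2.34 ± 0.13), the receptor genes Rarg (2.67 ± 0.15) and Rarb (1.39 ± 0.17) and the degrading enzyme gene Cyp26b1 (1.14 ± 0.27). Aldh1a1, another synthesising enzyme, was lower, at 76.3, 68.8 and 45.2 CPM against 181, 169.9 and 181 (-1.51 ± 0.19), and so was the receptor gene Rxrb (-1.05 ± 0.11).

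Energy genes were lower in choroid, by small steps. Of 19 measured nuclear-encoded respiratory chain genes 16 were lower and none was higher (median -0.91). Atp5b, of the ATP synthase, stood at 941, 988 and 999.7 CPM against 1981, 1788 and 1813 (-0.93 ± 0.11). Of 16 glycolysis genes 14 were lower (median -1.28). Gapdh stood at 660.3, 689 and 622 against 1761, 1761 and 1769.7 (-1.42 ± 0.11), while the neuronal and astrocytic isoforms Eno2 (-4.46) and Aldoc (-4.52) differed far more than their counterparts Eno1 (-0.32 ± 0.14, adjusted p = 0.0724) and Aldoa (-0.37 ± 0.13). The call for Aldoa was lost with upper quartile scaling (adjusted p = 0.197) and without Brain Input replicate 1 (0.0861), 2 (0.0826) or 3 (0.0718), and it was lost with genes at or above the median level alone (0.482). Eno1 passed, as lower, without Choroid Input replicate 2 (0.00316), with DESeq2's Wald test (0.0452) and with voom (0.0124). The difference between isoforms was not tested. Long non-coding RNAs were lower in 4 of 6 cases, with Meg3 at 199, 131 and 23.8 CPM in choroid and 4831, 4789 and 4702 in brain (-5.36 ± 0.68), Snhg11 at -5.62 ± 0.55, Rian at -4.41 ± 0.29 and Malat1 at -1.73 ± 0.26. Neat1 was higher (1.40 ± 0.18). Immediate early genes gave both directions, with Egr1 lower (-2.37 ± 0.21) and Ier2 higher (0.97 ± 0.16), and Fos, Arc and Npas4 were listed for Brain alone.

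The same tissue difference was measured in the Positive fraction, RNA pulled down with tagged ribosomes. The difference between the 2 fractions was tested as an interaction over 12 libraries. Pan-endothelial genes took 0.709% of listed counts in Brain Positive and 0.0233% in Brain Input. Neuronal genes still took 0.749% in Brain Positive, against 1.80% in Brain Input. Photoreceptor genes took 6.37% in Retina Positive and 6.84% in Retina Input. Positive is thus not RNA of tagged cells alone. How far RNA of other cells shapes the differences below was not tested. The choroid over brain difference was higher in Positive than in Input for 1670 genes (22.4%) and lower for 1921 (25.7%), 48.1% in all. With library totals alone as scaling the counts were 1080 and 2309, a share of 31.9% higher against 46.5%, and the median of all differences moved by -0.23. In Choroid Positive replicate 2 the ribosomal RNA precursor Rn45s took 13.03% of the listed counts, and without that library the counts were 1613 and 2372. For 682 genes (9.14%) choroid was higher than brain in Input, the difference was called lower in Positive, and the Positive difference was below 0. These fits did not pair the 2 fractions of a homogenate. With each homogenate as a replicate block, 1823 differences were higher in Positive and 2029 lower.

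Blood-brain barrier genes changed sides between fractions. The difference was lower in Positive for 16 of 17 members, against 25.7% of all genes. Of these members, 13 were higher in choroid Input and below 0 in Positive, against 9.14% of all genes. The list median in Positive was -2.41. Slco1c1, a thyroid hormone transporter, stood at 295, 338 and 302 CPM in Choroid Input and 64.6, 62.96 and 57.2 in Brain Input, but at 33.8, 41.4 and 38.8 in Choroid Positive and 1098, 882 and 899 in Brain Positive (interaction -7.02 ± 0.21, adjusted p = 7.25e-11). For Slc16a1 the log2 difference went from 4.57 in Input to -1.32 in Positive, and for Slc22a8 from 3.19 to -3.79. Slc2a1 went from 3.57 to -0.47 (interaction -4.04 ± 0.25). Cldn5, at 2.01 in Input, stood at -0.09 in Positive. Fibroblast genes did likewise, with 22 of 23 differences lower and 18 of them below 0 in Positive, where the median was -1.36. Col1a1 stood at 101, 121 and 78.9 CPM in Choroid Positive and 325, 525 and 396 in Brain Positive, against 647, 564 and 542 and 24.4, 26.1 and 26.03 in Input (interaction -6.59 ± 0.28, adjusted p = 1.47e-09).

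Of the 9 fenestration genes, 4 had a wider difference in Positive, 2 (Scarb1 and Vegfa) a narrower one, and 3 did not pass. Over all genes 22.4% were called higher and 25.7% lower. The call for Scarb1 was lost in 9 of the 12 fits that left out a library (adjusted p from 0.0507 to 0.112). Plvap went from 5.26 in Input to 7.75 in Positive (interaction 2.48 ± 0.35, adjusted p = 5.54e-05), with 10423, 10256 and 8896 CPM in Choroid Positive and 51.4, 41.8 and 44.01 in Brain Positive. Cd24a (2.37 ± 0.33), Ppap2a (1.78 ± 0.29) and Ppap2b (1.95 ± 0.27) widened too, and Igfbp3 was at 0.02 ± 0.26. The eye-field gene Six3 widened from 3.86 to 7.51 (interaction 3.65 ± 0.30), at 2045, 1625 and 1469.7 CPM in Choroid Positive and 11.5, 10.2 and 6.60 in Brain Positive. Pan-endothelial genes narrowed but stayed on the side of choroid in 17 of 18, with a median of 1.89 in Positive. For neuronal genes the medians were -4.24 in Input and -4.24 in Positive. Of 11 differences 3, among them those of Stmn2 and Mapt, were called higher. This is near the 22.4% of all genes and says little about the list. The call for Mapt was lost with library totals (adjusted p = 0.0568) and without Choroid Positive replicate 1 (0.120) or 2 (0.0506), Choroid Input replicate 3 (0.0538) or Brain Positive replicate 2 (0.0547), while without Choroid Positive replicate 2 Syt1 (0.00679) and Thy1 (0.0335) were called lower. Complement genes fell back, with all 15 differences lower in Positive, against 25.7% of all genes, and a median of -0.15, led by Serping1 (-6.45 ± 0.46).

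**Figure D5:**
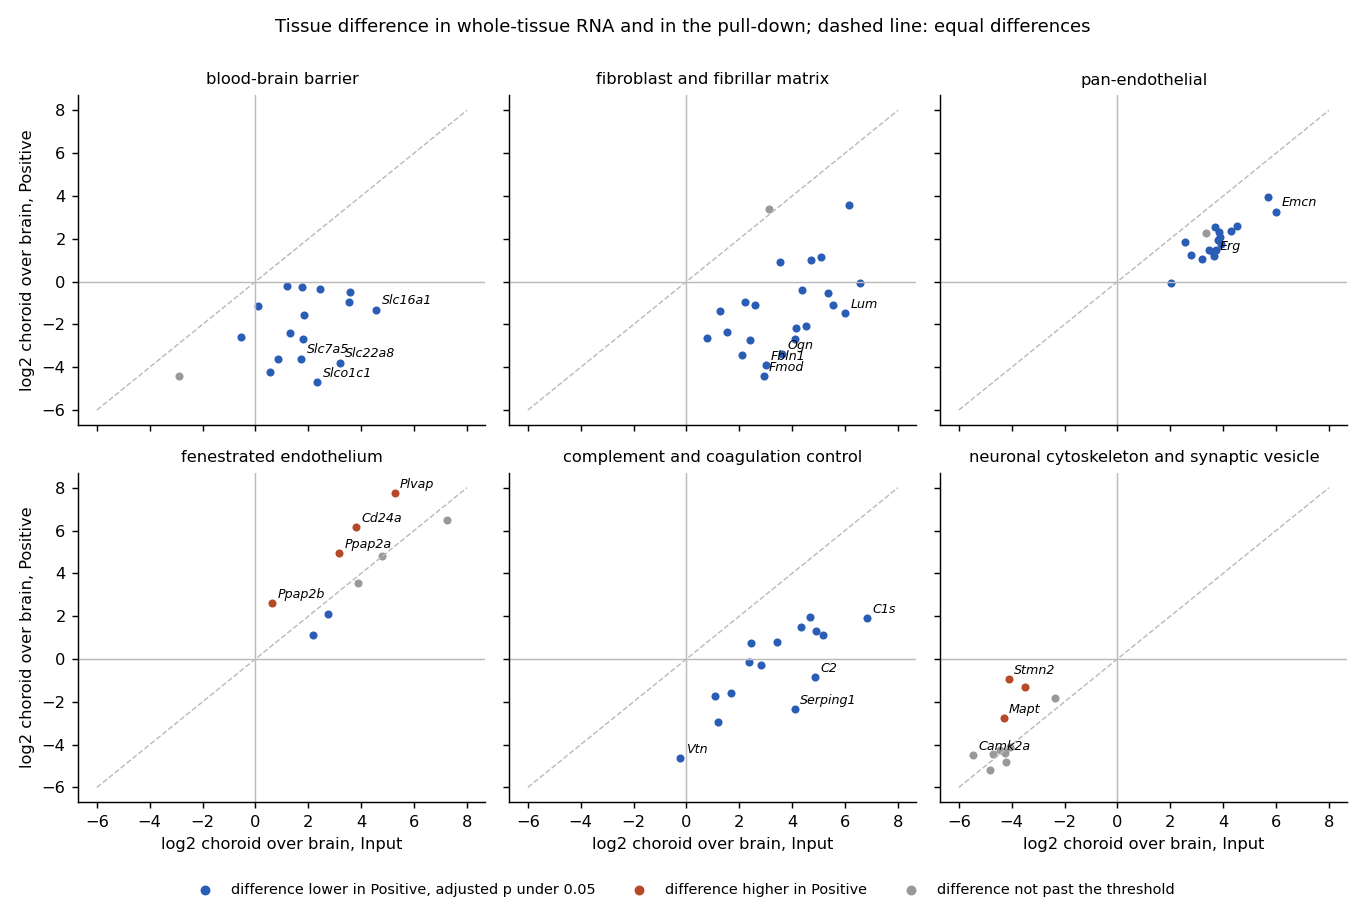
Log2 difference of choroid over brain in Input (horizontal) and in Positive (vertical) for the members of 6 gene lists; the dashed line marks equal differences, and colours give the interaction test. All points of the blood-brain barrier, pan-endothelial and complement lists and all but Fbln2 of the fibroblast list lie below the line, those of barrier and fibroblast genes largely below 0 in Positive, and Plvap, Cd24a, Ppap2a and Ppap2b lie above it.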

How the data were processed

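Whole-tissue RNA was measured by sequencing in 3 Choroid Input and 3 Brain Input libraries (directional kit, per the labels' protocols). The authors' deposited tables give estimated (expected) counts per gene, and beside them log2 values that the authors centred on each gene's Input median, which were not used because they are not comparable between tables. Per the file headers, the authors made the estimated count table by listing a gene once every library of 1 fraction or the other reached a raw value of 50. The build mm10 and the tool DESeq come from the submitters' processing notes. The aligner, the counter and its use of strand were not given in the sources read, so values of overlapping and antisense genes are uncertain. Gene positions are those of the deposited tables.

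Estimated counts were rounded to whole numbers, joined over the 7461 shared Entrez identifiers, filtered with filterByExpr (minimum count 10, which removed no gene), scaled by TMM and tested with edgeR 4.0.16 in R 4.3.3 (quasi-likelihood F test, 4 residual degrees of freedom, Benjamini-Hochberg adjusted p under 0.05). The difference between fractions was the interaction in a fit over 12 libraries (8 residual degrees of freedom). This fit had no replicate block, so its SE and p-values leave out the pairing of Input and Positive by homogenate. Standard errors are the log2 difference over the square root of F. Normalised CPM use TMM-scaled library sizes. A share of listed counts sums the list members in the tissue's table over all genes of that table. The members summed can therefore differ between tissues. The script was tested on simulated data. Total counts per library, given above, set the precision: the Choroid libraries are the shallower.

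Named genes were the top 15 in each direction by size of change among called genes whose groups did not overlap and whose mean level was at or above the median of the genes tested, leaving out predicted and clone symbols, and, from each of 35 lists, its opening 2 measured members together with the 2 that changed furthest; other members were named with their values known. Some genes that the rule or the lists hold are not reported here by name. The comparison, members and lists were chosen with earlier results of these data known. Alternatives were DESeq2 1.42.0 size factors and Wald test, limma voom (limma 3.58.1), upper quartile and library-total scaling, no filter, genes at or above the median level, a replicate block, Brain counts thinned to Choroid depth, stricter thresholds, and leaving out each library.

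Input and Positive libraries of 1 number come from the same homogenate, per the labels' protocols, and are paired by it; their deviations from the group means correlated across genes at 0.169, 0.183 and 0.134 for Choroid and 0.220, 0.0431 and 0.278 for Brain. With groups of 3 an exact permutation test of a single gene could not go below p = 0.1, so none was used.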

Additional observations from a re-analysis of the deposited data

Results flagged for a closer look

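The difference of choroid over brain was itself different between the Positive and the Input fraction for 19 of the 30 genes with the largest Input differences, by the interaction test (edgeR, adjusted p under 0.05); over all genes it was higher in Positive for 1670 and lower for 1921. Each of the 15 genes highest in choroid had a lower log2 difference in Positive. The 30 genes were picked by the size of the Input difference, which the interaction subtracts. That choice by itself favours a lower difference in these 15 and a higher one in the 15 lowest. The counts among them are therefore a description and no support for a direction. The largest shifts were those of Wfikkn2 (-7.49), Mfsd7c (-7.24), Col8a2 (-6.87), Cpxm2 (-6.49), Thbs1 (-6.20), Col8a1 (-5.35) and Pla2g5 (-4.60). The claudin gene Cldn1 had a shift of -3.20. For genes of the pigment epithelium, visual cycle and pigment the shifts were -3.78 in Rdh10, -2.41 in Rlbp1, -2.37 in Rdh5, -2.20 in Slc16a8, -1.88 in Gpnmb and -1.55 in Krt18. With Brain thinned to Choroid depth, Slc16a8 (adjusted p = 0.442), Krt18 (0.345) and Gpnmb (0.361) lost the call, and Gpnmb also lost it with voom (0.0674), without Choroid Input replicate 1 (0.0618) and without Brain Input replicate 2 (0.0551).

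Of the 15 genes lowest in choroid, Slc12a5 (3.30), Snhg11 (1.79), Tubb4a (1.28) and Sept3 (1.09) had a higher difference in Positive. With each homogenate as a replicate block Meg3 (1.41, adjusted p = 0.0199), Slc1a2 (1.604, 0.0415) and Camk2b (0.86, 0.0392) were called higher as well, and Fbxl16 (-0.86, 0.0400) lower. The call for Snhg11 was lost with upper quartile scaling (0.0717) and library totals (0.0789) and in 7 of the 12 fits that left out a library (0.0662 to 0.169), and Tubb4a lost it with library totals (0.0617) and without Choroid Positive replicate 3 (0.0730). Sept3 lost it in the majority of alternatives (0.0529 to 0.160).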

How the results depend on the processing

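For the Input comparison, 2049 of 2063 values of 123 named genes kept their direction and their side of the threshold over the alternatives. The others concerned Bpgm, Tmem119 and Cx3cr1, which lost the call in 13 values, and Ndufa4, which gained it without Choroid Input replicate 2 (adjusted p = 0.0251). Part of the named genes were picked as called, large and without overlap, which by itself favours such stability. The fit with no filter repeated the main fit, because the filter removed no gene. DESeq2's Wald test gave 2727 higher and 2628 lower genes, voom 2699 and 2755, and Brain thinned to Choroid depth 2589 and 2384. Upper quartile scaling moved the median of all genes by 0.16 and gave 2974 and 2142. Genes at or above the median level gave 1372 and 1414, from fewer genes tested, and a log2 change of at least 1 gave 1746 and 1232. Leaving out 1 library gave 2322 to 2800 higher and 2194 to 2824 lower genes. Among list members outside the named rule, the calls of Tfrc (0.104), Cox7a2 (0.0719), Aldoa (0.482) and Nr4a1 (0.0871) were lost when genes at or above the median level were fitted on their own, which rescales the libraries and moved Aldoa from -0.37 to -0.11. Nr4a1 also lost its call without Brain Input replicate 1 (0.0901) and without Choroid Input replicate 3 (0.0978).

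For the difference between fractions, 2689 of 2795 values of named genes kept direction and side. Here too the fit with no filter repeated the main fit. Higher differences numbered 1080 with library totals, 870 with genes at or above the median level, 1089 at an adjusted p under 0.01 and 935 with a log2 change of at least 1; lower ones numbered 1108 with genes at or above the median level. Upper quartile scaling gave 1278 higher and 2198 lower. Leaving out 1 library gave 1362 to 1740 higher and 1705 to 2372 lower, and the Penk difference ran from -0.90 (without Choroid Positive replicate 2) to 0.47 (without Choroid Positive replicate 3); the cause was not tested. With each homogenate as a replicate block the counts were 1823 and 2029; among named genes and list members the block ended the calls of Bambi (0.0522), Egfl7 (0.0691), Ermn (0.0620), Gja1 (0.0513), Mrc1 (0.0798) and Prkca (0.0512) and added 10 calls, among them Vamp2 (0.0178) and Rian (0.0217).

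Whether the numbers of Choroid and Brain Input pair the libraries is not known. Same-numbered libraries correlated at -0.197, -0.108 and 0.131, and not every library correlated best with its own number. Such correlations cannot decide it. Brain Input 2 correlated at 0.0431 with Brain Positive 2, of the same homogenate, and at 0.0844 with Brain Positive 3. With the number as a replicate block, 2457 genes were higher and 2415 lower, and the Input call of Aldoa was lost (0.0701). Depth limits the low genes of Choroid Input, and listing in a table follows depth.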
